A study of Mus musculus with 6 samples.

Results

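Lysosomal transcripts were examined in RNA-seq libraries of mouse bone marrow labelled as knockout of the SNORD113-114 cluster or as wildtype. This cluster holds imprinted genes for small nucleolar RNAs of the box C/D class. The members are 41 genes, taken as the rows of the deposited count table whose mouse Ensembl identifier carries 1 of 41 listed symbols of lysosomal enzymes, lysosomal membrane proteins, proton pump subunits and their transcription factors. All 41 were found among the 47729 genes of the table, and all 41 had enough reads to be tested. The study compared 3 libraries labelled cluster KO with 3 labelled wildtype to find genes that differ in expression. The labels give bone marrow as the tissue, extracted as whole cells, and mark each library as mutant or wildtype. The extent of the deletion, the strain, age and sex, and any sorting of cells are not stated. Rian, the transcript that hosts the small nucleolar RNAs, had 9, 6 and 3 raw counts among cluster KO libraries, beside 11, 5 and 38 among wildtype libraries, too few to check the labels. The series text speaks of 3 mice per genotype without saying which library came from which animal, and p-values measure the spread between these libraries.

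Lysosomes are acidic organelles that break down proteins, glycans, lipids and nucleic acids delivered by endocytosis, phagocytosis and autophagy. Their hydrolases work at low pH, which the vacuolar-type proton pump maintains by moving protons through its membrane sector V0 with energy from ATP hydrolysis in its cytosolic sector V1. The transcription factors TFEB and TFE3 bind a short element, the CLEAR motif, near many lysosomal genes, and mTORC1 at the lysosomal surface holds them in the cytoplasm of well-fed cells. In bone marrow, lysosomal enzymes are abundant in granulocyte precursors, monocytes and macrophages, serve antigen processing in B lineage and dendritic cells, and are present in every other blood cell.

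Levels are given as CPM, read counts scaled to TMM-adjusted library sizes. A gene passed where the edgeR quasi-likelihood test gave a Benjamini-Hochberg adjusted p under 0.05 over all 15686 genes tested. Of these genes, 15.9% passed as higher and 12.1% as lower in cluster KO (2487 and 1895 genes). With upper quartile scaling in place of TMM, which moved the median log2 fold change of all genes from 0.00 to -0.10, the split was 2100 higher and 2411 lower. Gene counts per library ran from 17663369 to 23459168. The share of reads outside genes was 10.05, 8.59 and 7.29% in cluster KO 1, 2 and 3 and 10.03, 10.5 and 11.06% in wildtype 1, 2 and 3. Change also varied with transcript length: the median log2 fold change was -0.42 in the shortest decile of genes, 0.41 in the fourth and -0.30 in the longest. Of the 41 lysosomal genes, 7, 2, 7, 8 and 5 lay in the second to the sixth decile, whose medians were 0.16, 0.40, 0.41, 0.22 and 0.12. Another 7, 1 and 3 lay in the seventh to the ninth decile, whose medians were -0.035, -0.11 and -0.18. The shortest decile held 1 and the longest 0. With length and GC trends removed, the median log2 fold change of the lysosomal genes was 0.29, beside 0.04 over all genes. In that fit 16 lysosomal genes passed as higher and 2 as lower. The shares of all genes that passed in it are not given here, so these counts cannot be set against 15.9% and 12.1%. In bulk samples, fewer cells of a type and less RNA per cell cannot be told apart.

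More lysosomal genes were higher than lower in cluster KO marrow. Of the 41 genes, 18 rose (43.9%, against 15.9% of all genes tested) and 2 fell (4.88%, against 12.1%), so that 48.8% passed in either direction, against 27.9% of all genes, and 21 did not pass. The median log2 fold change was 0.40, beside 0.00 over all genes tested, and 35 of the 41 fold changes were above 0. Of these 35, Cd63, Gusb, Galns, Lipa and Atp6v0d1 were below 0 in at least 1 alternative, Cd63 for instance with upper quartile scaling. Their lowest values were -0.04, -0.14, -0.07, -0.10 and -0.18 in turn. The rises lay among cathepsins (7 of 8), glycosidases (3 of 7), proton pump subunits (5 of 10), membrane proteins (2 of 6) and other hydrolases and lipid-handling proteins (1 of 8). The falls were in the transcription factor gene Tfe3 and the pump subunit gene Atp6v0e. In 22 genes all cluster KO libraries lay above all wildtype libraries and in 3 genes below them, where 22.9% and 23.1% of all genes tested did so (46% in either direction). Without cluster KO 2, wildtype 2 or wildtype 3, 11 genes were higher each time, and 13 were without cluster KO 3 and 16 without wildtype 1. The number was highest without cluster KO 1. Over all genes, too, the fewest passed without cluster KO 2 and the most without cluster KO 1. Counts from fits with a library left out, here and below, are to be read beside that. Both falls were lost without cluster KO 2, cluster KO 3, wildtype 2 or wildtype 3, and that of Atp6v0e also without wildtype 1. Of the 20 genes that passed, 9 did so in all 17 alternative analyses: Ctsa, Ctsb, Ctsc, Ctsh, Ctss, Neu1, Asah1, Atp6v0c and Atp6v1h. The genes with the highest fold change in each group, and Tfe3, lie on GRCm38 in the GENCODE M21 annotation as follows: Ctsh (ENSMUSG00000032359) at chr9:90054152-90076089, Neu1 (ENSMUSG00000007038) at chr17:34931253-34935953, Asah1 (ENSMUSG00000031591) at chr8:41340197-41374773, Cd68 (ENSMUSG00000018774) at chr11:69664213-69666153, Atp6v0c (ENSMUSG00000024121) at chr17:24163866-24169702 and Tfe3 (ENSMUSG00000000134) at chrX:7762560-7775202.

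**Figure D1:**
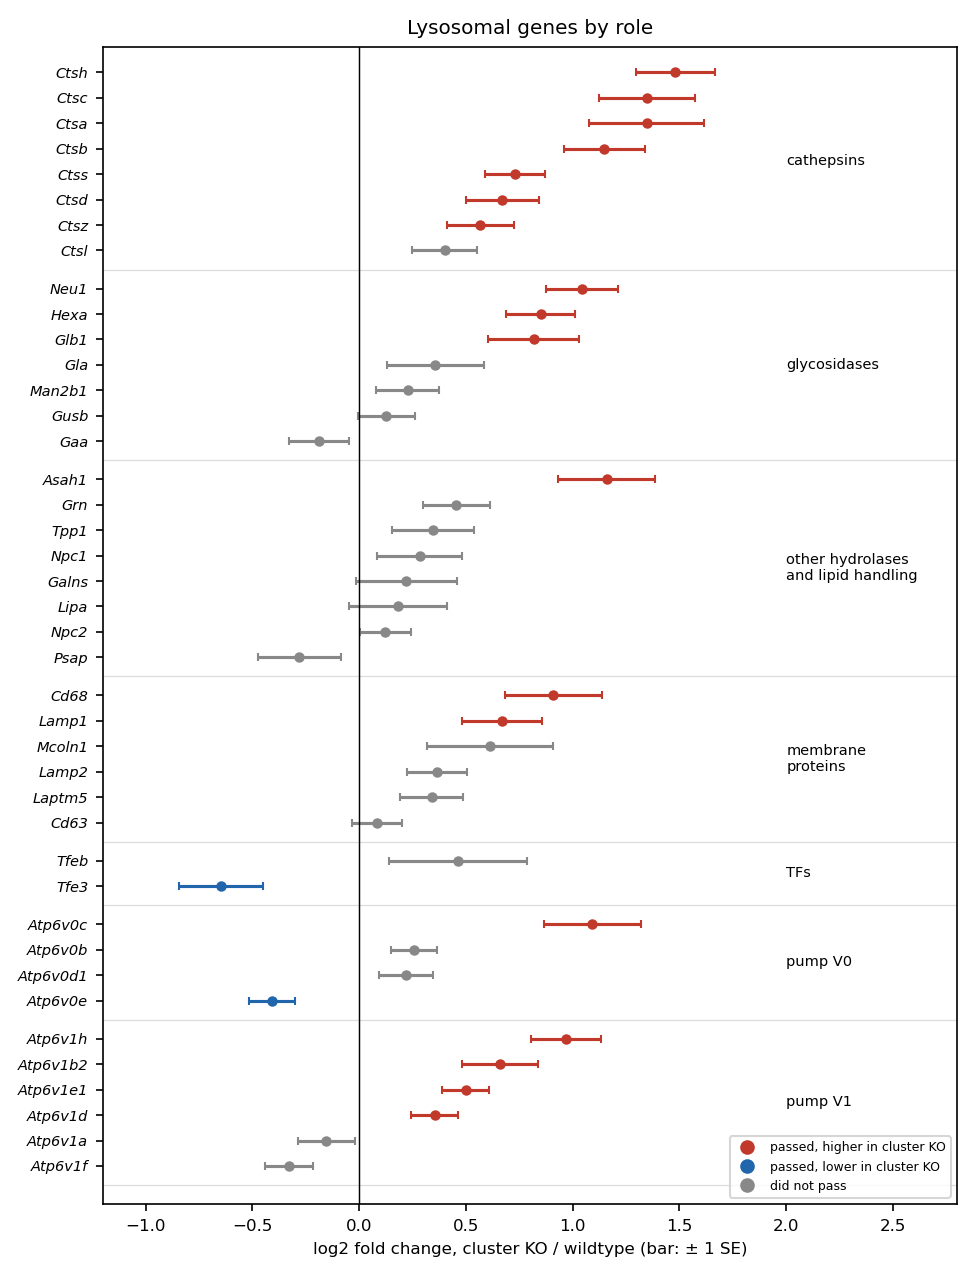
Log2 fold change of each lysosomal gene, cluster KO over wildtype, on the horizontal axis, grouped by role. Points are estimates of the edgeR fit and bars are 1 SE; red genes passed as higher, blue as lower and grey did not pass. Cathepsins carry the upper group of red points, from 0.57 for Ctsz to 1.48 for Ctsh, while Tfe3 at -0.65 and Atp6v0e at -0.41 lie on the other side of 0.

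Cathepsins, the proteases of the lysosome, formed the group with the largest share of rises. Of 8 genes 7 rose, none had a fold change below 0, and the median log2 fold change was 0.94. Ctsh encodes cathepsin H, a cysteine protease that acts mainly as an aminopeptidase. Ctsh was at 30.2, 33.3 and 32.4 CPM in the cluster KO and 13.9, 10.6 and 9.82 CPM in the wildtype libraries (log2 fold change 1.48, SE 0.18, adjusted p = 0.00167). Its cluster KO libraries lay close together and every one exceeded every wildtype library, at 2.79 times the wildtype level. Ctsc encodes cathepsin C, the dipeptidyl peptidase that activates the serine proteases of granulocytes and cytotoxic lymphocytes. Ctsc was at 91.7, 126 and 191 CPM in the cluster KO and 53, 53.9 and 53.7 CPM in the wildtype libraries (log2 fold change 1.35, SE 0.23, adjusted p = 0.00362). The wildtype libraries were nearly equal, whereas cluster KO 3 held more than cluster KO 1 by far, and the groups did not overlap. Ctsa encodes cathepsin A, a serine carboxypeptidase that also shields beta-galactosidase and sialidase from breakdown in a shared complex. Ctsa was at 72.4, 111 and 169 CPM in the cluster KO and 55.8, 43.6 and 38.9 CPM in the wildtype libraries (log2 fold change 1.35, SE 0.27, adjusted p = 0.00671), again with cluster KO 3 highest and no overlap. Ctsb, for the cysteine protease cathepsin B, was at 193, 264 and 356 CPM in the cluster KO and 121, 125 and 121 CPM in the wildtype libraries (log2 fold change 1.15, SE 0.19, adjusted p = 0.00352). Its wildtype libraries were alike and all cluster KO libraries lay above them, cluster KO 3 the furthest.

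The other cathepsins differed less. Ctss encodes cathepsin S, which trims the invariant chain of MHC class II in antigen-presenting cells. Ctss was at 80.7, 76.4 and 70.3 CPM in the cluster KO and 47.9, 39.4 and 49.6 CPM in the wildtype libraries (log2 fold change 0.73, SE 0.14, adjusted p = 0.00568), and here cluster KO 1 held the highest level, with no overlap of the groups. Ctsd encodes cathepsin D, the main aspartic protease of lysosomes, and was at 144, 191 and 227 CPM in the cluster KO and 135, 108 and 110.0 CPM in the wildtype libraries (log2 fold change 0.67, SE 0.17, adjusted p = 0.0168). Cluster KO 1 lay only a little above wildtype 1. Ctsz, for the carboxypeptidase cathepsin Z, was at 226, 252 and 261 CPM in the cluster KO and 196, 177 and 126 CPM in the wildtype libraries (log2 fold change 0.57, SE 0.16, adjusted p = 0.0244). Wildtype 3 held the lowest Ctsz level, and the groups did not overlap. Ctsl, for the endopeptidase cathepsin L, did not pass at 99.3, 109 and 111 CPM in the cluster KO and 81.9, 95.5 and 64.8 CPM in the wildtype libraries (log2 fold change 0.40, SE 0.15, adjusted p = 0.073), although its groups did not overlap either. The Ctsd and Ctsz calls were lost in some fits with fewer libraries: without cluster KO 2, wildtype 2 or wildtype 3 the adjusted p of Ctsd was 0.0645, 0.0776 and 0.0726 in turn, at log2 fold changes of 0.61 to 0.66, and without cluster KO 2, cluster KO 3, wildtype 2 or wildtype 3 the adjusted p of Ctsz was 0.0861, 0.0619, 0.0674 and 0.0654 in turn, at log2 fold changes of 0.40 to 0.61. With length and GC trends removed the log2 fold change was 0.26 for Ctsd (adjusted p = 0.136) and 0.21 for Ctsz (adjusted p = 0.216), and Ctsl passed at 0.57 (adjusted p = 0.0277). Ctsl also passed in DESeq2 at 0.43 (adjusted p = 0.0382), whereas without wildtype 3 it was at 0.26 (adjusted p = 0.23).

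**Figure D2:**
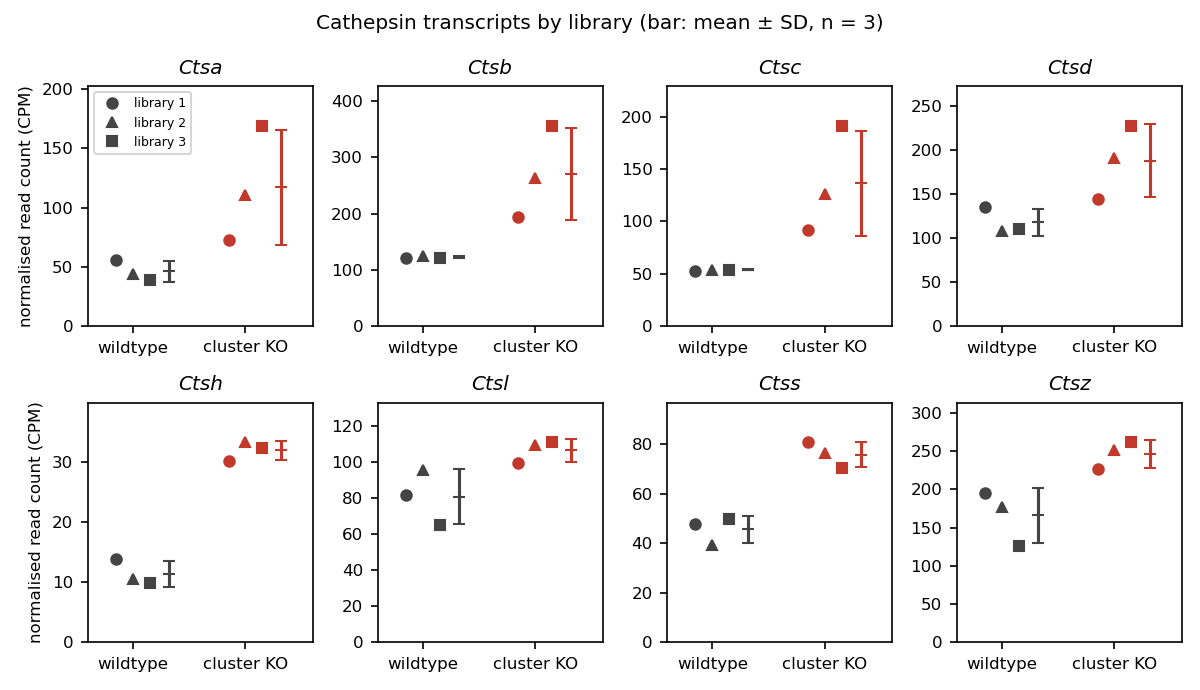
Normalised read count in CPM of the 8 cathepsin genes in each library, wildtype in grey and cluster KO in red. Circles, triangles and squares are libraries 1, 2 and 3, and the bar beside them is the mean ± SD (n = 3). In each panel the lowest cluster KO library lies above the highest wildtype library, by little for Ctsl and Ctsd and by more for Ctsh and Ctsc.

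Glycosidases, which remove sugars from glycoproteins and glycolipids, were split between 3 genes that rose and 4 that did not pass. The median log2 fold change of the 7 genes was 0.36. Neu1 encodes the lysosomal sialidase, which takes terminal sialic acid off glycans. Neu1 was at 34.8, 32.4 and 29.96 CPM in the cluster KO and 18.2, 14.5 and 14.4 CPM in the wildtype libraries (log2 fold change 1.04, SE 0.17, adjusted p = 0.0033). Every cluster KO library was above every wildtype library, and the Neu1 level was 2.06 times that of wildtype. Hexa, for the alpha subunit of beta-hexosaminidase, an enzyme of ganglioside breakdown, was at 72.8, 92.8 and 104 CPM in the cluster KO and 54.6, 51.4 and 43.4 CPM in the wildtype libraries (log2 fold change 0.85, SE 0.16, adjusted p = 0.00559). Its groups did not overlap. Glb1 encodes beta-galactosidase, the partner of cathepsin A and sialidase in their complex, and was at 33.5, 42.1 and 57.5 CPM in the cluster KO and 28.1, 26.6 and 20.8 CPM in the wildtype libraries (log2 fold change 0.82, SE 0.21, adjusted p = 0.0188). Cluster KO 3 stood highest and wildtype 3 lowest. Thus Ctsa, Neu1 and Glb1, whose products form the cathepsin A complex, all passed as higher. The Glb1 call was lost in 4 of the fits with fewer libraries: without cluster KO 2, cluster KO 3, wildtype 2 or wildtype 3 the adjusted p of Glb1 was 0.0551, 0.055, 0.0584 and 0.0833 in turn, at log2 fold changes of 0.58 to 0.86, and with length and GC trends removed its log2 fold change was 0.47 (adjusted p = 0.0634). Hexa kept its call in that fit at 0.41 (adjusted p = 0.024). The glycosidases that did not pass had overlapping groups. Gla, the X-linked alpha-galactosidase of globotriaosylceramide breakdown, was at 13.3, 13.4 and 17.3 CPM in the cluster KO and 12.2, 13.4 and 8.70 CPM in the wildtype libraries (log2 fold change 0.36, SE 0.23, adjusted p = 0.265). Man2b1, the lysosomal alpha-mannosidase (0.23, SE 0.15, adjusted p = 0.277), and Gusb, beta-glucuronidase (0.13, SE 0.13, adjusted p = 0.511), had small positive log2 fold changes. Gaa, the alpha-glucosidase that degrades glycogen in lysosomes, was at 36, 38.5 and 39.2 CPM in the cluster KO and 42.7, 47.9 and 39.2 CPM in the wildtype libraries (log2 fold change -0.19, SE 0.14, adjusted p = 0.342).

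Among the other hydrolases and lipid-handling proteins, 1 of 8 genes rose, a share of 12.5% that is not above the 15.9% of all genes tested. Asah1 encodes acid ceramidase, which splits ceramide into sphingosine and fatty acid. Asah1 was at 71.8, 118 and 132 CPM in the cluster KO and 52.5, 37.2 and 54.1 CPM in the wildtype libraries (log2 fold change 1.16, SE 0.23, adjusted p = 0.00625). Cluster KO 2 and 3 held more than cluster KO 1, and each exceeded every wildtype library. Grn, for progranulin, which is cleaved into granulins in the lysosome, was at 62.4, 59.4 and 80.7 CPM in the cluster KO and 43.9, 50.5 and 53.3 CPM in the wildtype libraries (log2 fold change 0.45, SE 0.16, adjusted p = 0.0546). Its groups did not overlap but it did not pass. Grn passed in DESeq2 (adjusted p = 0.0199), with scaling to library size only (adjusted p = 0.0419), with no low count filter (adjusted p = 0.0452) and without cluster KO 1 (adjusted p = 0.0387). Removing length and GC trends left Grn at 0.12 on the log2 scale (adjusted p = 0.551). The remaining 6 genes had overlapping groups. Tpp1, a tripeptidyl peptidase (log2 fold change 0.34, SE 0.19, adjusted p = 0.206), passed without cluster KO 1 (adjusted p = 0.0383) and was at 0.10 without cluster KO 3 (adjusted p = 0.667). Npc1 (0.28, SE 0.20) and Npc2 (0.12, SE 0.12), which export cholesterol from lysosomes, Galns (0.22, SE 0.24), a sulfatase of keratan sulfate, and Lipa (0.18, SE 0.23), the acid lipase of cholesteryl esters, were near 0 on the log2 scale. Psap encodes prosaposin, the precursor of the saposins that present sphingolipids to hydrolases. Psap was at 15.8, 17.6 and 17.7 CPM in the cluster KO and 17.7, 18.9 and 25.6 CPM in the wildtype libraries (log2 fold change -0.28, SE 0.19, adjusted p = 0.303), the only negative fold change of this group. This level is low for so widely expressed a gene, and the annotation used for counting is not stated, so that overlaps with other features in it could not be checked.

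Lysosomal membrane proteins included 2 genes that rose among 6, with a median log2 fold change of 0.49, and all 6 fold changes were above 0 except that Cd63 was at -0.01 with upper quartile scaling and -0.04 without cluster KO 1. Cd68, a heavily glycosylated endosomal and lysosomal protein of macrophages and other myeloid cells, was at 14.5, 18.6 and 16.6 CPM in the cluster KO and 9.58, 10.3 and 6.60 CPM in the wildtype libraries (log2 fold change 0.91, SE 0.23, adjusted p = 0.016). The level was low throughout, and the groups did not overlap. Lamp1 encodes the most abundant glycoprotein lining the lysosomal membrane. Lamp1 was at 169, 216 and 302 CPM in the cluster KO and 153, 149.5 and 129.9 CPM in the wildtype libraries (log2 fold change 0.67, SE 0.19, adjusted p = 0.0256). Cluster KO 3 was far above cluster KO 1, which lay close to wildtype 1. The related Lamp2, which also serves chaperone-mediated autophagy, was at 132, 154 and 187 CPM in the cluster KO and 125, 117 and 126 CPM in the wildtype libraries (log2 fold change 0.36, SE 0.14, adjusted p = 0.0774) and did not pass. Neither call held throughout: without cluster KO 2, cluster KO 3, wildtype 1, wildtype 2 or wildtype 3 the adjusted p of Lamp1 was 0.0662, 0.0603, 0.0558, 0.0762 and 0.104 in turn, at log2 fold changes of 0.42 to 0.71, its log2 fold change without cluster KO 3 was 0.42, and after removal of length and GC trends 0.29 (adjusted p = 0.135). Likewise, without cluster KO 2 or wildtype 3 the adjusted p of Cd68 was 0.074 and 0.0597 in turn, at log2 fold changes of 0.74 to 0.82. Lamp2 passed in DESeq2 (adjusted p = 0.044), with length and GC trends removed (adjusted p = 0.047) and without cluster KO 1 (adjusted p = 0.0134), and was at 0.22 without cluster KO 3 (adjusted p = 0.216). Mcoln1 encodes the calcium channel TRPML1 of late endosomes and lysosomes and was at 11.1, 18.8 and 26.7 CPM in the cluster KO and 14.4, 10.2 and 12.3 CPM in the wildtype libraries (log2 fold change 0.61, SE 0.30, adjusted p = 0.148). Its cluster KO libraries spread widely, and cluster KO 1 lay within the wildtype range. Laptm5, a lysosomal protein of white blood cells, did not pass (log2 fold change 0.34, SE 0.15, adjusted p = 0.111). Without cluster KO 1, Mcoln1 (adjusted p = 0.0157) and Laptm5 (adjusted p = 0.015) passed. Without cluster KO 3 the log2 fold change was 0.28 for Mcoln1 (adjusted p = 0.517) and 0.19 for Laptm5 (adjusted p = 0.327). With length and GC trends removed these were 0.17 (adjusted p = 0.66) and 0.09 (adjusted p = 0.579). Cd63, a tetraspanin of late endosomes and exosomes, was at 415, 335 and 325 CPM in the cluster KO and 336, 347 and 332 CPM in the wildtype libraries (log2 fold change 0.08, SE 0.12, adjusted p = 0.622), with cluster KO 1 above all other libraries and the other cluster KO libraries within or just below the wildtype range.

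**Figure D3:**
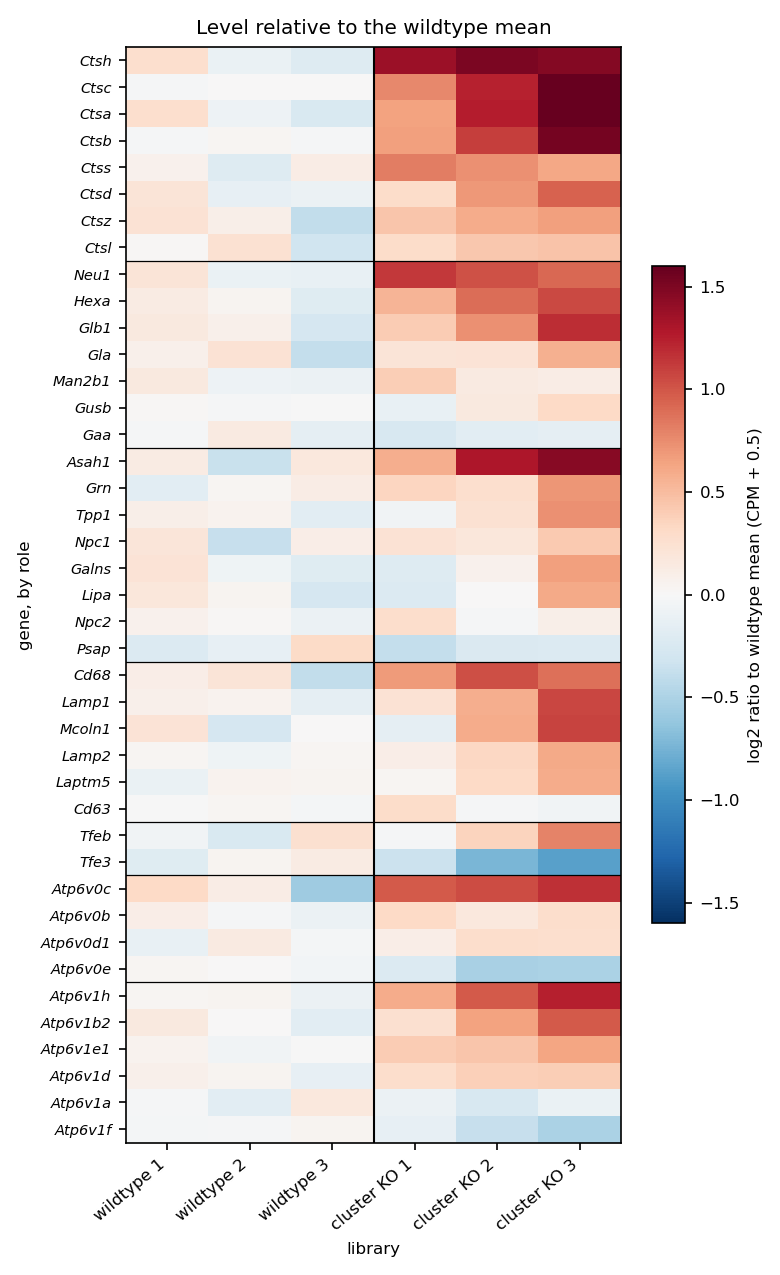
Log2 ratio of each library's level to the wildtype mean (CPM + 0.5) for the 41 genes, by role, with the 6 libraries in columns. Red cells are above and blue cells below the wildtype mean. The median over the 41 genes was 0.28, 0.36 and 0.63 in cluster KO 1, 2 and 3 and 0.08, 0.01 and -0.09 in wildtype 1, 2 and 3.

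Of the transcription factor genes of the lysosomal programme, Tfe3 fell and Tfeb did not pass. Tfe3 was at 18.8, 14.2 and 12.8 CPM in the cluster KO and 20.8, 24.7 and 26.1 CPM in the wildtype libraries (log2 fold change -0.65, SE 0.20, adjusted p = 0.0353). All cluster KO libraries lay below all wildtype libraries, and cluster KO 3, which held the highest level of many enzymes, held the lowest of Tfe3. Without cluster KO 2 the adjusted p of Tfe3 was 0.128, without cluster KO 3 0.095, without wildtype 2 0.107 and without wildtype 3 0.12. Tfeb, at 3.79, 5.04 and 7 CPM in the cluster KO and 3.66, 3.17 and 4.66 CPM in the wildtype libraries (log2 fold change 0.46, SE 0.32, adjusted p = 0.308), was among the least abundant members and its groups overlapped. TFEB and TFE3 are regulated largely by phosphorylation and location in the cell, which these counts do not measure.

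Promoter sequences show where the CLEAR core lies in some of these genes. The core was searched as TCACGTG on both strands, within the 250 bases before each RefSeq start on GRCm38.p6, and it contains the E-box CACGTG. RefSeq promoters were found for 34 of the 41 genes, of which 9 held a core (26.5%), beside 3.58% of 27025 genes with a promoter. The stretches below are shown for 4 genes that rose and 2 that did not pass, to let the same element be seen in both; capitals mark the core, and 30 bases are given where an annotated exon reaches into the window and 80 elsewhere.
Ctsa (chr2:164833743-164833772, plus strand): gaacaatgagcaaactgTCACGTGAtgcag
Ctsd (chr7:142387908-142387937, minus strand): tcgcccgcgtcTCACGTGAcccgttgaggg
Glb1 (chr9:114400993-114401072, plus strand): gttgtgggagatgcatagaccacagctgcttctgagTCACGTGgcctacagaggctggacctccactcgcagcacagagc
Lamp1 (chr8:13159081-13159160, plus strand): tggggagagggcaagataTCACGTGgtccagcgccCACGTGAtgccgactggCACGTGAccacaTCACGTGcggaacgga
Gaa (chr11:119267786-119267865, plus strand): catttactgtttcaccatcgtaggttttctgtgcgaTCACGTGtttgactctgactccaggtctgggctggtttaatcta
Atp6v1a (chr16:44139348-44139427, minus strand): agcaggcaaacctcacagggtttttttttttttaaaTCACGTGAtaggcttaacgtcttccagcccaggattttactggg
Lamp1 held 4 cores close together before its start and Ctsd 2, of which 1 is shown, while Ctsa, Glb1, Gaa and Atp6v1a held 1 each. The Ctsa core lay before a later RefSeq start, and the first start of Ctsa had 0 cores. The stretches of Ctsa, Ctsd and Atp6v1a lay within the gene bounds of GENCODE M21, not before them. Of the 9 genes with a core 4 rose, with a median log2 fold change of 0.61, and of the 25 without one 9 rose and 2 fell, with a median of 0.35. Among the genes with a core, Ctsa had the highest fold change and Gaa the lowest (1.35 and -0.19), so that genes holding the element ranged widely. A match is a description of these letters only.

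Subunits of the proton pump moved in both directions. Of 10 genes 5 rose and 1 fell, with a median log2 fold change of 0.31; 3 rose without cluster KO 2, cluster KO 3 or wildtype 3 and 2 without wildtype 2. In the membrane sector V0, Atp6v0c encodes the proteolipid that forms most of the rotating ring. Atp6v0c was at 30.5, 31.9 and 34.9 CPM in the cluster KO and 19.1, 16.5 and 10.1 CPM in the wildtype libraries (log2 fold change 1.09, SE 0.23, adjusted p = 0.00789). The cluster KO libraries were close together and above all wildtype libraries, of which wildtype 3 was lowest. Atp6v0c has annotated pseudogenes, and 1 of them, Atp6v0c-ps2, had 0 raw counts in each cluster KO library and 17, 10 and 4 in wildtype 1, 2 and 3. These counts are small beside those of Atp6v0c itself. It had 669, 760 and 753 raw counts in cluster KO 1, 2 and 3 and 422, 292 and 197 in wildtype 1, 2 and 3. Reads that did not align uniquely counted for neither copy, and their split between copies is uncertain. Atp6v0e, a small subunit of the same sector, fell: it was at 552, 446 and 449 CPM in the cluster KO and 656, 646 and 619 CPM in the wildtype libraries (log2 fold change -0.41, SE 0.11, adjusted p = 0.0207), with no overlap. This call was lost in most such fits: without cluster KO 2, cluster KO 3, wildtype 1, wildtype 2 or wildtype 3 the adjusted p of Atp6v0e was 0.11, 0.0542, 0.0663, 0.0852 and 0.0525 in turn, at log2 fold changes of -0.35 to -0.43. Atp6v0b, the second kind of ring proteolipid (0.26, SE 0.11, adjusted p = 0.0951), and Atp6v0d1, which couples the ring to the central stalk (0.22, SE 0.12, adjusted p = 0.212), did not pass.

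In the cytosolic sector V1, 4 of 6 genes rose. Atp6v1h, a regulatory subunit that lets ATP hydrolysis drive transport, was at 94.7, 125 and 149.5 CPM in the cluster KO and 64.4, 65 and 59.1 CPM in the wildtype libraries (log2 fold change 0.97, SE 0.17, adjusted p = 0.00381). The wildtype libraries were alike and cluster KO 3 was highest. Atp6v1b2, the B subunit of the catalytic head found in most tissues, was at 117, 153 and 193 CPM in the cluster KO and 109, 97.7 and 86.4 CPM in the wildtype libraries (log2 fold change 0.66, SE 0.18, adjusted p = 0.0215). Atp6v1e1, of the peripheral stalks, was at 200.0, 204 and 234 CPM in the cluster KO and 157, 145 and 149.5 CPM in the wildtype libraries (log2 fold change 0.50, SE 0.11, adjusted p = 0.0102). Atp6v1d, of the central stalk, was at 170.4, 183 and 185 CPM in the cluster KO and 148, 145 and 129 CPM in the wildtype libraries (log2 fold change 0.35, SE 0.11, adjusted p = 0.039). In all 4 genes the groups did not overlap, but the calls of Atp6v1b2, Atp6v1e1 and Atp6v1d were lost in fits with fewer libraries: without cluster KO 2, cluster KO 3, wildtype 2 or wildtype 3 the adjusted p of Atp6v1b2 was 0.0708, 0.0576, 0.0768 and 0.093 in turn, at log2 fold changes of 0.47 to 0.67; without wildtype 2 the adjusted p of Atp6v1e1 was 0.0577, at a log2 fold change of 0.47; without cluster KO 2, cluster KO 3, wildtype 1, wildtype 2 or wildtype 3 the adjusted p of Atp6v1d was 0.14, 0.0729, 0.0668, 0.107 and 0.131 in turn, at log2 fold changes of 0.29 to 0.39. Atp6v1d also missed the threshold with upper quartile scaling (log2 fold change 0.25, adjusted p = 0.118) and with no low count filter (adjusted p = 0.0537). Atp6v1f, a small central stalk subunit, was at 474, 404 and 366 CPM in the cluster KO and 508, 516 and 538 CPM in the wildtype libraries (log2 fold change -0.33, SE 0.11, adjusted p = 0.0532). All its cluster KO libraries lay below all wildtype libraries, yet it did not pass. Atp6v1f passed as lower with upper quartile scaling (adjusted p = 0.0385), limma-voom (adjusted p = 0.0426), a filter at a mean CPM of 1 (adjusted p = 0.044) and without cluster KO 1 (adjusted p = 0.00594), and was at -0.12 with length and GC trends removed (adjusted p = 0.291). Atp6v1a, the catalytic A subunit that pairs with B in the head, was at 72.2, 64.7 and 71.9 CPM in the cluster KO and 76.3, 68.8 and 87.2 CPM in the wildtype libraries (log2 fold change -0.15, SE 0.13, adjusted p = 0.417), with overlapping groups. The summed level of the 10 pump genes ran from 1957 to 2072 CPM in the cluster KO and from 1963 to 2048 CPM in the wildtype libraries, whereas that of the 8 cathepsins ran from 939 to 1418 CPM and from 574 to 705 CPM. The pump sum was weighted to Atp6v0e and Atp6v1f, with wildtype means of 640.3 and 520.5 CPM and fold changes below 0. Of the 10 pump fold changes 7 were above 0.

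Per kilobase of the longest coding transcript, pump subunits and Cd63 were the most abundant members. In wildtype libraries Atp6v1f had the highest mean, 646 CPM per kb, followed by Cd63 at 305, Atp6v0e at 228 and Atp6v0b at 217 CPM per kb. The wildtype libraries of Atp6v0e and Atp6v0b overlapped on this scale. Ctsz was the most abundant cathepsin at 115 CPM per kb in wildtype and 171 in cluster KO. The least abundant was Ctsh in wildtype at 7.07 CPM per kb. In cluster KO it was Ctsl at 17.3 CPM per kb, where Ctsh was at 19.8. This last order rests on the length taken for Ctsl, 6168 bases for the longest of its coding transcripts. Without scaling by length, the cluster KO means were 106.5 CPM for Ctsl and 31.98 CPM for Ctsh. Ctsh, the cathepsin with the highest fold change, was the one with the lowest level per length in wildtype libraries. Gusb was the highest glycosidase in wildtype at 36.7 CPM per kb, and Hexa, at 25 CPM per kb there, stood at 45 CPM per kb in cluster KO, where Gusb was at 40.02. Tfeb had the lowest level of all 41 genes at 1.63 CPM per kb in wildtype libraries.

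**Figure D4:**
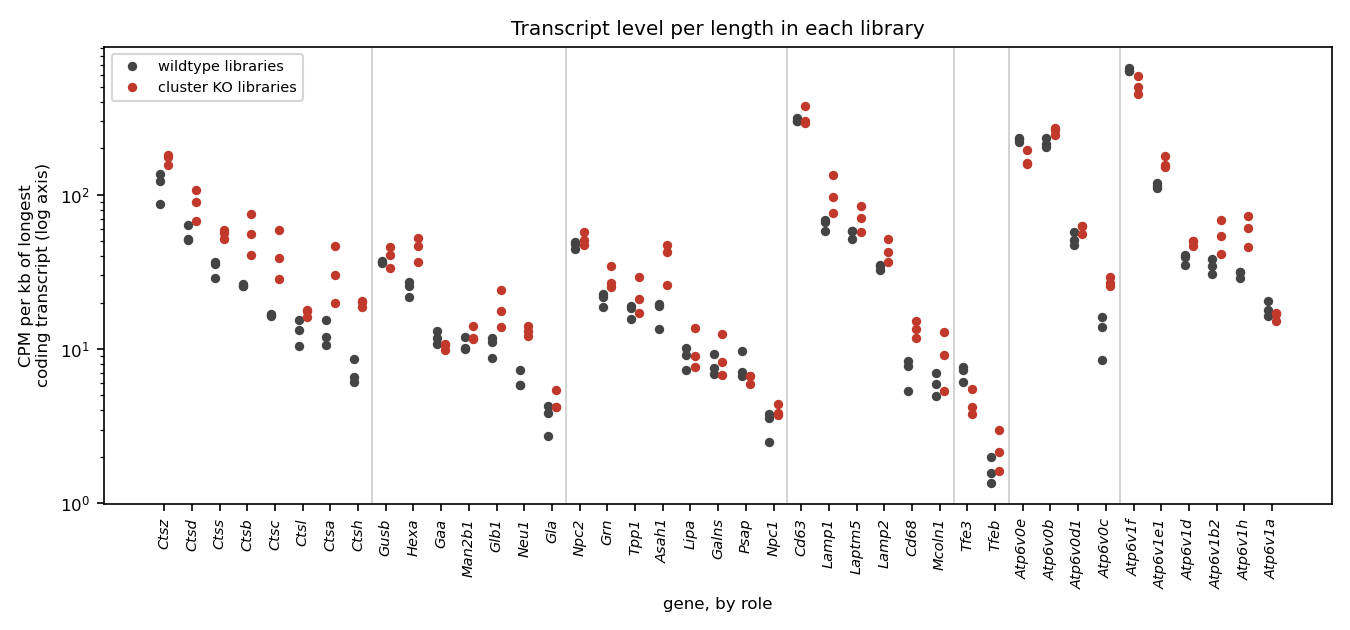
Level per length of the 41 genes in each library, in CPM per kilobase of the longest coding transcript on a log axis. Genes are grouped by role and sorted by their wildtype mean; grey points are wildtype and red points cluster KO libraries. The wildtype means span from 1.63 for Tfeb to 646 for Atp6v1f.

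Further genes of the lysosome were read from lists that hold none of the 41 genes. Of 44 further hydrolases tested, 20 rose (45.5%) and 1 fell, beside the 15.9% and 12.1% of all genes, with a median log2 fold change of 0.42. Plbd1, a phospholipase B-like protein of granulocyte granules, was at 51, 50.7 and 48.6 CPM in the cluster KO and 10.7, 9.21 and 16.6 CPM in the wildtype libraries (log2 fold change 2.04, SE 0.22, adjusted p = 0.000902). Lgmn, the asparaginyl endopeptidase legumain that processes cathepsins, was at 6.89, 8.99 and 8.77 CPM in the cluster KO and 1.81, 2.60 and 2.05 CPM in the wildtype libraries (log2 fold change 1.94, SE 0.29, adjusted p = 0.00268). In both genes every cluster KO library lay above every wildtype library. Manba, beta-mannosidase, fell (log2 fold change -0.50, SE 0.17, adjusted p = 0.0474), but without cluster KO 2, cluster KO 3, wildtype 1, wildtype 2 or wildtype 3 the adjusted p of Manba was 0.099, 0.118, 0.156, 0.1 and 0.0884 in turn, at log2 fold changes of -0.40 to -0.55. Without cluster KO 2, cluster KO 3, wildtype 2 or wildtype 3, the number of further hydrolases that rose was 11, 12, 10 and 10 in turn.

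Further subunits of the pump and membrane proteins included both rises and falls. Of 13 further pump subunits and assembly factors 3 rose (23.1%) and 1 fell (7.69%), beside 15.9% and 12.1% of all genes tested. Atp6ap2 (0.61, SE 0.12, adjusted p = 0.00733) and Atp6ap1 (0.83, SE 0.17, adjusted p = 0.00742), accessory proteins of V0, and Atp6v1c1 (0.57, SE 0.12, adjusted p = 0.00901), of the V1 stalk, rose on the log2 scale. For the last, without cluster KO 2 the adjusted p of Atp6v1c1 was 0.0519, at a log2 fold change of 0.55, and Atp6ap1 was at 0.46 with length and GC trends removed. Atp6v0e2, a paralog of Atp6v0e, fell and was barely detected, with 4, 2 and 3 raw counts in cluster KO 1, 2 and 3 and 11, 46 and 33 in wildtype 1, 2 and 3 (adjusted p = 0.00943 in edgeR). In fits with fewer libraries, without cluster KO 2 or wildtype 2 the adjusted p of Atp6v0e2 was 0.0506 and 0.0524 in turn. Of 34 further membrane proteins 8 rose (23.5%) and 3 fell (8.82%). The rises with the smallest p were Cyb561a3 (4.41, SE 0.48, adjusted p = 0.00105), a lysosomal cytochrome b561, Laptm4b (1.51, SE 0.17, adjusted p = 0.00126), a relative of Laptm5, and Glmp (1.59, SE 0.21, adjusted p = 0.00217), a glycosylated membrane protein. The falls were in the two-pore channel gene Tpcn1 (-1.11, SE 0.23, adjusted p = 0.00736) and the intramembrane protease genes Sppl2a (-0.59, SE 0.15, adjusted p = 0.0153) and Sppl2b (-0.81, SE 0.20, adjusted p = 0.0154). The counts were 5 and 1 without cluster KO 2 and 4 and 3 without wildtype 2, and 3 of the other 4 such fits gave 6 and 1 or 6 and 3. For the proteases, without cluster KO 2, wildtype 1 or wildtype 3 the adjusted p of Sppl2a was 0.0733, 0.0556 and 0.0574 in turn, at log2 fold changes of -0.54 to -0.57, and without cluster KO 2, wildtype 1 or wildtype 3 the adjusted p of Sppl2b was 0.0707, 0.0563 and 0.0557 in turn, at log2 fold changes of -0.73 to -0.80.

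Sorting and nutrient-sensing genes stood near the background. Of 27 genes that sort enzymes to lysosomes 5 rose (18.5%) and 3 fell (11.1%), and 3 rose without cluster KO 2, cluster KO 3 or wildtype 3 and 8 without cluster KO 1. Ap1m1, a subunit of the AP-1 adaptor, was at 148, 226 and 302 CPM in the cluster KO and 88.1, 79.8 and 67.9 CPM in the wildtype libraries (log2 fold change 1.52, SE 0.23, adjusted p = 0.00277). Gnptg (0.71, SE 0.14, adjusted p = 0.00616), of the enzyme that makes the mannose 6-phosphate tag, and Rab7 (0.78, SE 0.17, adjusted p = 0.00929), the small GTPase of late endosomes, also rose, at 0.45 and 0.49 with length and GC trends removed. Igf2r, the large mannose 6-phosphate receptor, was at -0.75, SE 0.22, adjusted p = 0.0322, Gga3, an adaptor, at -0.62, SE 0.20, adjusted p = 0.0399 and Vps18, of the HOPS tethering complex, at -0.63, SE 0.21, adjusted p = 0.0494. These 3 calls were lost in most fits with fewer libraries: without cluster KO 2, cluster KO 3, wildtype 1, wildtype 2 or wildtype 3 the adjusted p of Igf2r was 0.116, 0.0889, 0.0884, 0.0944 and 0.0708 in turn, at log2 fold changes of -0.60 to -0.80; without cluster KO 2, cluster KO 3, wildtype 2 or wildtype 3 the adjusted p of Gga3 was 0.109, 0.108, 0.165 and 0.116 in turn, at log2 fold changes of -0.47 to -0.63; without cluster KO 1, cluster KO 2, cluster KO 3, wildtype 1, wildtype 2 or wildtype 3 the adjusted p of Vps18 was 0.0814, 0.0548, 0.134, 0.0714, 0.158 and 0.121 in turn, at log2 fold changes of -0.52 to -0.80. Of 24 genes of TFEB regulation and mTORC1 at the lysosome 5 rose (20.8%) and 1 fell (4.17%). Lamtor1 (0.67, SE 0.15, adjusted p = 0.00968), the anchor of the Ragulator complex, rose and its partner Lamtor2 (-0.54, SE 0.12, adjusted p = 0.0115) fell. Ywhab (0.49, SE 0.12, adjusted p = 0.0162), a 14-3-3 protein, and Ppp3r1 (0.60, SE 0.16, adjusted p = 0.0219), a calcineurin subunit, were the other named rises. The calls other than Lamtor1 were also lost in some such fits: without cluster KO 2 or wildtype 2 the adjusted p of Lamtor2 was 0.0633 and 0.0629 in turn, at log2 fold changes of -0.48 to -0.51; without cluster KO 2, wildtype 2 or wildtype 3 the adjusted p of Ywhab was 0.06, 0.0745 and 0.0561 in turn, at log2 fold changes of 0.47 to 0.50; without cluster KO 2, cluster KO 3, wildtype 1, wildtype 2 or wildtype 3 the adjusted p of Ppp3r1 was 0.0866, 0.0603, 0.0562, 0.0911 and 0.0614 in turn, at log2 fold changes of 0.49 to 0.64. With length and GC trends removed Lamtor2 was at -0.23 (adjusted p = 0.107). Without cluster KO 2 or wildtype 3 the rises in this list numbered 1, and without cluster KO 3, wildtype 1 or wildtype 2 they numbered 2. Of 9 cystatins and serpins tested, which inhibit cathepsins and granule proteases, 1 rose (11.1%), Serpinb1a (1.01, SE 0.15, adjusted p = 0.00261). Their median log2 fold change was 0.47, and 6 of the 9 fold changes were above 0. The abundant cathepsin inhibitors Cst3 (-0.13, SE 0.10, adjusted p = 0.379) and Cstb (-0.25, SE 0.12, adjusted p = 0.155), named after their values were seen, were below 0 and did not pass.

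**Figure D5:**
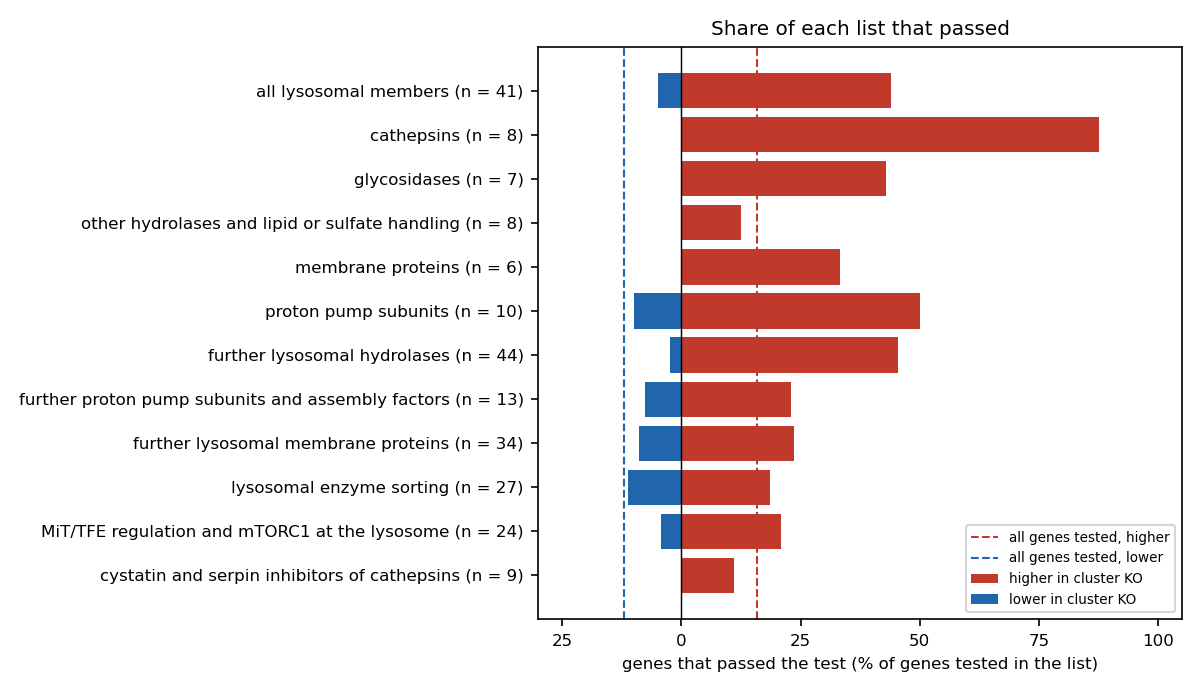
Share of each gene list that passed the edgeR test, in percent of the genes tested in the list, with higher in cluster KO to the right in red and lower to the left in blue. Dashed lines are the shares over all genes tested, 15.9% higher and 12.1% lower. Cathepsins (87.5%), proton pump subunits (5 of 10) and further hydrolases (45.5%) reach furthest to the right, while sorting genes (18.5%) and inhibitors (11.1%) lie near the line.

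Markers of marrow cell types moved together with the lysosomal genes in part. The shares over all genes tested were 15.9% higher and 12.1% lower. Of 6 genes shared by all leukocytes, which include Laptm5, 3 rose and 1 fell, with a median log2 fold change of 0.47 and sums of 1434 to 1677 CPM in the cluster KO against 975 to 978 CPM in the wildtype libraries. Cd53, Coro1a and Cd48 rose, Spn fell, and Ptprc, the common leukocyte antigen, was at 0.06, SE 0.10, adjusted p = 0.719 on the log2 scale. The alpha globin gene Hba-a1 fell and was at 62.8, 78.3 and 49.8 CPM in the cluster KO and 112, 187 and 207 CPM in the wildtype libraries (log2 fold change -1.41, SE 0.23, adjusted p = 0.00354). This level is low for marrow that holds its red cells, but it is that of a single globin gene. The 12 erythroid markers include Hba-a1, Hba-a2, Hbb-bs and Hbb-bt. Their sums were 4450 to 5584 CPM in the cluster KO and 5737 to 6062 CPM in the wildtype libraries. Reads that did not align uniquely were counted for no gene, so these values need not show all globin. Whether red cells were removed is not stated in the labels. Of 12 B lineage markers 7 rose, and their summed level was 2710 to 2823 CPM in the cluster KO and 1295 to 1336 CPM in the wildtype libraries. Of 16 neutrophil markers 6 rose (37.5%, against 15.9% of all genes), and 16 of 16 fold changes were above 0 under TMM scaling, with a median of 0.68 on the log2 scale and sums of 11220 to 21070 CPM against 6524 to 12500 CPM, which overlap. Mmp8, Ltf, Ngp, Lcn2, Mmp9 and Ly6g rose, by 0.94 to 2.73 on the log2 scale. The granule gene Elane did not pass and was at 709, 2.19 and 171 CPM in the cluster KO and 251, 296 and 113 CPM in the wildtype libraries, so that cluster KO 2 stood far below all others. Of 17 tested markers of monocytes and macrophages 1 rose, Cd14 (2.87, SE 0.79, adjusted p = 0.0235), 4 were higher at an unadjusted p under 0.05 and 1 lower, and the sums of 193 to 307 CPM against 182 to 186 CPM did not overlap. Over these 17 markers 8 fold changes were above 0 and the median was -0.03 on the log2 scale. Among them, the macrophage genes Csf1r (1.02 to 5.70 CPM), Adgre1 (0.813 to 4.09 CPM) and C1qa (3.70 to 5.65 CPM) were low in all 6 libraries and did not pass. The monocyte genes Ly6c2 (0.49, SE 0.25, adjusted p = 0.175) and Ccr2 (0.79, SE 0.28, adjusted p = 0.0619) did not pass either. Of 11 tested dendritic cell markers 2 rose, with sums of 136 to 167 CPM against 118 to 126 CPM. Of 10 osteoclast markers 5 were tested, with a median log2 fold change of 0.93 and sums of 88.6 to 102 CPM against 68.5 to 87.7 CPM: Mmp9 (0.98, SE 0.27, adjusted p = 0.0229), also a neutrophil marker, and Acp5 (0.93, SE 0.25, adjusted p = 0.0198) rose, Itgb3 (-1.18, SE 0.29, adjusted p = 0.0155) fell, and Calcr, Oscar, Ocstamp, Ctsk and Atp6v0d2 had too few counts to be tested. Of 8 tested markers of mast cells, basophils and eosinophils 2 rose, with sums of 189 to 215 CPM against 74.1 to 124 CPM. Erythroid and megakaryocyte markers moved mostly the other way, with median log2 fold changes of -0.75 and -0.37. Of the 12 erythroid markers 6 fell and 0 rose, and 3 fold changes were above 0, the highest at 0.93. Of 9 tested megakaryocyte markers 3 fell and 1 rose, and 3 fold changes were above 0. Megakaryocyte sums were 302 to 308 CPM in the cluster KO against 444 to 549 CPM in the wildtype libraries. Of 12 tested T and NK cell markers 3 rose and 1 fell, with a median log2 fold change of -0.16. Of 12 stem and progenitor markers 3 rose and 2 fell, with sums of 1411 to 1428 CPM against 1276 to 1336 CPM. Of 8 tested markers of stroma and endothelium 1 rose, with overlapping sums. Without wildtype 2 or wildtype 3, 3 erythroid markers fell. The single monocyte and macrophage call was lost without cluster KO 2 or wildtype 1, both osteoclast rises without cluster KO 2 or wildtype 2, and 1 dendritic cell marker rose without cluster KO 2, cluster KO 3 or wildtype 2. The part of these cell types in the lysosomal results was not tested.

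Some members share exon bases with another gene, and the libraries carry no strand, so that their reads cannot be told apart there. Reads that HTSeq set apart as ambiguous, on average 2.77% in cluster KO and 2.93% in wildtype libraries, counted for no gene. The effect of shared bases on the fold changes was not tested. Ctsa overlaps Pltp and Neurl2, which had at most 29 and 43 raw counts in a library, and Hexa overlaps Tmem202, with at most 27. Ctsb overlaps Fdft1 by 774 bases and Npc1 overlaps Rmc1 by 511 bases, and both of these neighbours passed as higher in edgeR (adjusted p = 0.0151 for Fdft1 and 0.0156 for Rmc1). Fdft1 had 651, 1150 and 1051 raw counts in cluster KO 1, 2 and 3 and 595, 370 and 304 in wildtype 1, 2 and 3. Ctsz overlaps Nelfcd by 10 bases, and Nelfcd also passed as higher in edgeR (log2 fold change 0.90, adjusted p = 0.0114). Lamp1 overlaps Grtp1 by 249 bases, which had 50 to 131 raw counts and did not pass. Ctsd and Ctsl also overlap annotated genes that were not analysed here.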

How the data were processed

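Bone marrow RNA was sequenced in 6 libraries, 3 cluster KO and 3 wildtype, grouped by sample title. The libraries are poly(A) and non-stranded, per the labels' protocols, and the submitters' processing notes name bcl2fastq, TopHat2, HTSeq and mm10. The deposited values are raw counts per Ensembl gene, with tool versions and annotation release unstated. The 5 HTSeq summary rows entered neither library sizes nor tests. They held on average 13.97% (cluster KO) and 16.42% (wildtype) of reads as not uniquely aligned (p = 0.1 in a two-sided exact permutation test, which can go no lower), 8.65% and 10.53% as outside genes (p = 0.2, exact permutation) and 2.77% and 2.93% as ambiguous (p = 0.1, exact permutation). Names and positions came from GENCODE M21 (GRCm38), which matched 47310 of 47729 genes; lengths are of the longest coding transcript. No pair of libraries of the same genotype agreed within sampling noise (chi-square per degree of freedom 10.98 to 70.49).

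The genotypes were compared in edgeR 4.0.16 under R 4.3.3 (TMM scaling, filterByExpr at a minimum count of 10, robust quasi-likelihood F-test, Benjamini-Hochberg at 0.05). The SE is the coefficient divided by the square root of F. Where a library holds 0 counts, its level may be up to 3 counts (95% confidence, counting error only), or 0.128 to 0.17 CPM by library. Alternatives were other scalings and filters, DESeq2 1.42.0, limma-voom (limma 3.58.1), replicate number as a block, removal of length and GC trends through offsets (loess, span 0.3), a minimum fold of 1.5, and each library left out. All members were reported by role; of each further list, up to 3 genes per direction with the smallest p were named, except 1 that is not reported here. Members, lists and the motif were chosen with earlier results of these data known.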

Additional observations from a re-analysis of the deposited data

How the results depend on the processing

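Over 17 alternatives for each of the 41 genes (697 values), 615 kept their side of the threshold, 66 lost the call, 16 gained it and 0 that had passed changed sign. With the replicate number as a block, the count was 1331 of all genes higher and 865 lower, 11 lysosomal genes higher and 0 lower, and 2 pump subunits higher and 0 lower. With the replicate block and length and GC trends removed together, it was 1195 and 827 of all genes, 9 and 1 lysosomal genes, 1 glycosidase higher and 2 pump subunits higher. Same-numbered libraries of the genotypes did not deviate together (correlations of deviations -0.17, 0.01 and -0.14), so the replicate number is not taken to pair them. Under a minimum fold of 1.5, 1 lysosomal gene was lower, and 3 pump subunits were higher and 0 lower. Upper quartile scaling, limma-voom and a filter at a mean CPM of 1 each gave 2 pump subunits lower. Leaving out each library in turn gave 1258 to 3151 of all genes higher and 742 to 2579 lower, 11 to 23 lysosomal genes higher and 0 to 3 lower, 5 to 7 cathepsins higher, 2 to 3 glycosidases higher, and 2 to 5 pump subunits higher and 0 to 2 lower; the lowest count of all genes came without cluster KO 2 and the highest without cluster KO 1. The cause of these shifts was not tested, beyond the smaller number of libraries.

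The least abundant member, Tfeb, had 56 to 151 raw counts a library. With 3 libraries a genotype, 11 of the 20 calls were lost in at least 1 alternative. Tool versions and any sorting of cells are not stated.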

Other observations

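The cluster KO libraries differed among themselves in the lysosomal genes as much as some differed from wildtype. In 26 of the 41 genes (63.4%) cluster KO 1 held the lowest and cluster KO 3 the highest of the cluster KO levels, and in 6 the reverse held. Over all genes tested these shares were 27.6% and 26.6%, and over the 2487 genes higher in cluster KO they were 67.1% and 5.39%. The median log2 ratio of the 8 cathepsins to the wildtype mean was 0.65, 0.92 and 1.20 in cluster KO 1, 2 and 3, and 0.14, -0.03 and -0.15 in wildtype 1, 2 and 3. For the 10 pump genes it was 0.27, 0.33 and 0.34, and 0.05, 0.01 and -0.07. The share of reads outside genes ran over these libraries as 10.05, 8.59 and 7.29%, and 10.03, 10.5 and 11.06%, and its part in the lysosomal levels was not tested. Among the 18 genes that passed as higher, the exceptions were Ctss and Neu1, highest in cluster KO 1, and Ctsh and Cd68, highest in cluster KO 2.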
